A study of Rattus norvegicus with 7 samples.

Results

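p53 target genes other than Cdkn1a were followed in cultured rat oligodendrocyte progenitor cells, the cells that mature into the myelin-forming oligodendrocytes of the brain. The set was 10 genes listed by symbol (Mdm2, Ccng1, Bax, Bbc3, Eda2r, Aen, Phlda3, Zmat3, Sesn1 and Fas). Of these, 9 were found among the 32852 genes of the deposited table, and Bbc3 was not analysed here. All cells were wild type and came from rat brains at postnatal day 7. They were transfected with RNAiMAX either with a control siRNA (4 libraries) or with one that targets the endogenous retroviral sequence RNLTR12-int (3 libraries, called siRNLTR12-int), and all were kept in differentiating medium for 4 to 5 days. The libraries are labelled as biological replicates with no animal or culture named, so p-values measure only how far these samples spread, and that spread may be technical. RNLTR12-int itself was not analysed here, and its knockdown was not checked.

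p53 is a transcription factor that cells keep scarce at rest and stabilise after DNA damage and other stress. It binds response elements built from a pair of similar half-sites and raises the transcription of genes that stop the cell cycle, repair DNA, limit growth or start apoptosis. One of its targets, Mdm2, encodes the ubiquitin ligase that marks p53 for degradation, which closes a feedback loop. In the oligodendrocyte lineage p53 has been studied both in differentiation and in cell death. The targets described here act at different points: Eda2r and Fas are receptors at the cell surface, Bax and Aen act in apoptosis, Zmat3, Phlda3 and Sesn1 act on RNA and on growth signalling, and Mdm2 and Ccng1 feed back on p53.

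Response element matches are shown first, because they are the sequence feature by which p53 targets are usually recognised. RefSeq promoter windows (build GRCr8, 250 bases before to 50 bases after the annotated start) were at hand for 7 of the genes, and each was searched for the p53 response element consensus, 20 bases made of 2 adjoining half-sites of 10 bases with no spacer. The consensus reads the same on both strands, so 1 pass covers both. The capitals mark the closest match in the window, and the lower-case letters are its surroundings, 5′ to 3′ on the gene's strand. For Eda2r and for Fas the marked stretch is 1 of 3 that are equally close.
Ccng1: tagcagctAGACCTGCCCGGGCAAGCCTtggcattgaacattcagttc
Aen: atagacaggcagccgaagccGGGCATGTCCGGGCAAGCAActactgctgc
Sesn1: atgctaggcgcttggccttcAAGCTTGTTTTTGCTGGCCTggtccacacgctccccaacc
Phlda3: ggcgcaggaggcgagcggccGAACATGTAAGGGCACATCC
Eda2r: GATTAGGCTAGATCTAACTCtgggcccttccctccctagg
Fas: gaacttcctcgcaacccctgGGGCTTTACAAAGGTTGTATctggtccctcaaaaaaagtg

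The stretch from Ccng1 lies at chr10:25685079-25685126 (minus strand) and its match begins 242 bases before the start, with 1 mismatch to the consensus. A match with at most 1 mismatch was present in 0.0717% of the 33469 promoter windows. In Aen (chr1:142224483-142224532, plus strand) the match ends 11 bases before the start and has 2 mismatches, both in its last bases, a closeness reached by 0.872% of all windows. Ccng1, Aen and Sesn1 each hold 1 half-site without a mismatch, which 7.98% of all windows do. Sesn1 (chr20:46948527-46948586, plus strand) has 3 mismatches, reached by 6.18% of windows, and Phlda3 (chr13:49744979-49745018, plus strand) has 4, reached by 29.7%. The closest stretch in Phlda3 runs across the start, from 4 bases before it to 16 bases after it. Mdm2 and Fas (chr1:241211980-241212039, plus strand) have 5 mismatches, reached by 76.2% of windows, and Eda2r (chrX:66280831-66280870, minus strand) has 6, reached by 98.6%. Such a match describes letters only. Where none is close, these letters are merely not in this window, and elements in introns or farther upstream were not searched.

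**Figure D1:**
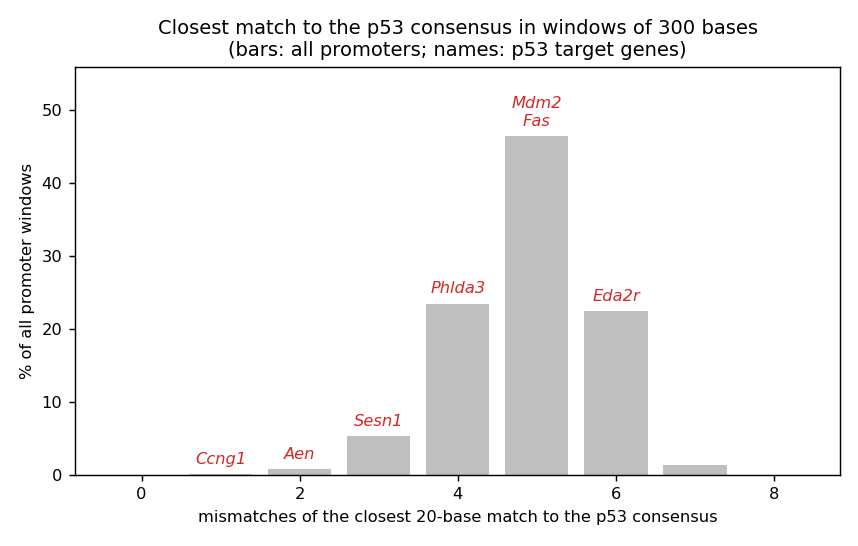
Closest match to the p53 consensus in promoter windows of 300 bases, with the number of mismatches on the horizontal axis and the percentage of all promoter windows on the vertical axis. The bars give all 33469 windows and the names mark the 7 genes, with Ccng1 (1 mismatch) and Aen (2 mismatches) in the thinly filled part on the left and Mdm2, Fas and Eda2r among the bulk of windows.

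The libraries held 22523873 to 61803693 reads recovered from the deposited values. Markers of the oligodendrocyte lineage were present in every library, with Sox10 at 8037 normalised counts or more and Olig2 at 9854 or more. Astrocyte markers divided the libraries across the siRNA groups. Their mean log2 level was 13.69 to 14.09 in 3 libraries (siRNLTR12-int replicate 1 with control replicates 1 and 2), called astrocyte-rich below, and 12.39 to 12.43 in the other 4, called astrocyte-poor. Microglia markers were also higher in the astrocyte-rich libraries (7.85 to 9.27, against 5.72 to 6.59). Of the 12 astrocyte and 11 microglia markers measured, none was at 0. Their summed normalised counts spanned 198011 to 714908 and 1645 to 14523 in controls, and 202373 to 797386 and 2280 to 16130 after the siRNA. The 10 vascular and fibroblast markers measured summed to 1638 to 4193 normalised counts in controls and 1698 to 3664 after the siRNA. Among them Pdgfrb had 652 to 2808 over the 7 libraries. Of the endothelial markers measured, Kdr had 83.8 to 158 and Cdh5 5.64 to 48.4, while Cldn5 was at 0 in every library.

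After the siRNA against RNLTR12-int, transcripts of Eda2r and Aen were higher in each of the 3 libraries than in each of the 4 controls, by 1.87-fold and 1.54-fold. Fas and Zmat3 were higher on average with groups that overlapped. Mdm2, Bax, Phlda3, Ccng1 and Sesn1 differed by less than their standard error or by little more than it. Values are normalised counts, that is reads scaled by 1 size factor per library, and each difference is siRNLTR12-int minus control on the log2(normalised count + 1) scale. With limma, 0 of 9 genes passed an adjusted p of 0.05, where 0% of all 18225 genes tested passed in either direction. Before adjustment, limma had 2 of 9 on the higher side with p under 0.05 (3.33% of all genes) and 0 on the lower side (2.98%). EdgeR, run on reads recovered from the deposited values, called 0 of 9 (0% of all genes), and before adjustment it also had 2 of 9 on the higher side (3.18%) and 0 on the lower side (3.21%). Groups without overlap occurred in 2 of 9 on the higher side (4.09% of all genes) and in 0 on the lower side (3.59%). By DESeq2, in the authors' deposited table, 1 of 9, Eda2r, rose at an adjusted p under 0.05 (0.384% of all genes with an adjusted p) and 0 fell (0.368%). A positive difference was found in 8 of 9, with a median of 0.11, against 51% of all genes (49% negative) and a median of 0.0057.

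**Figure D2:**
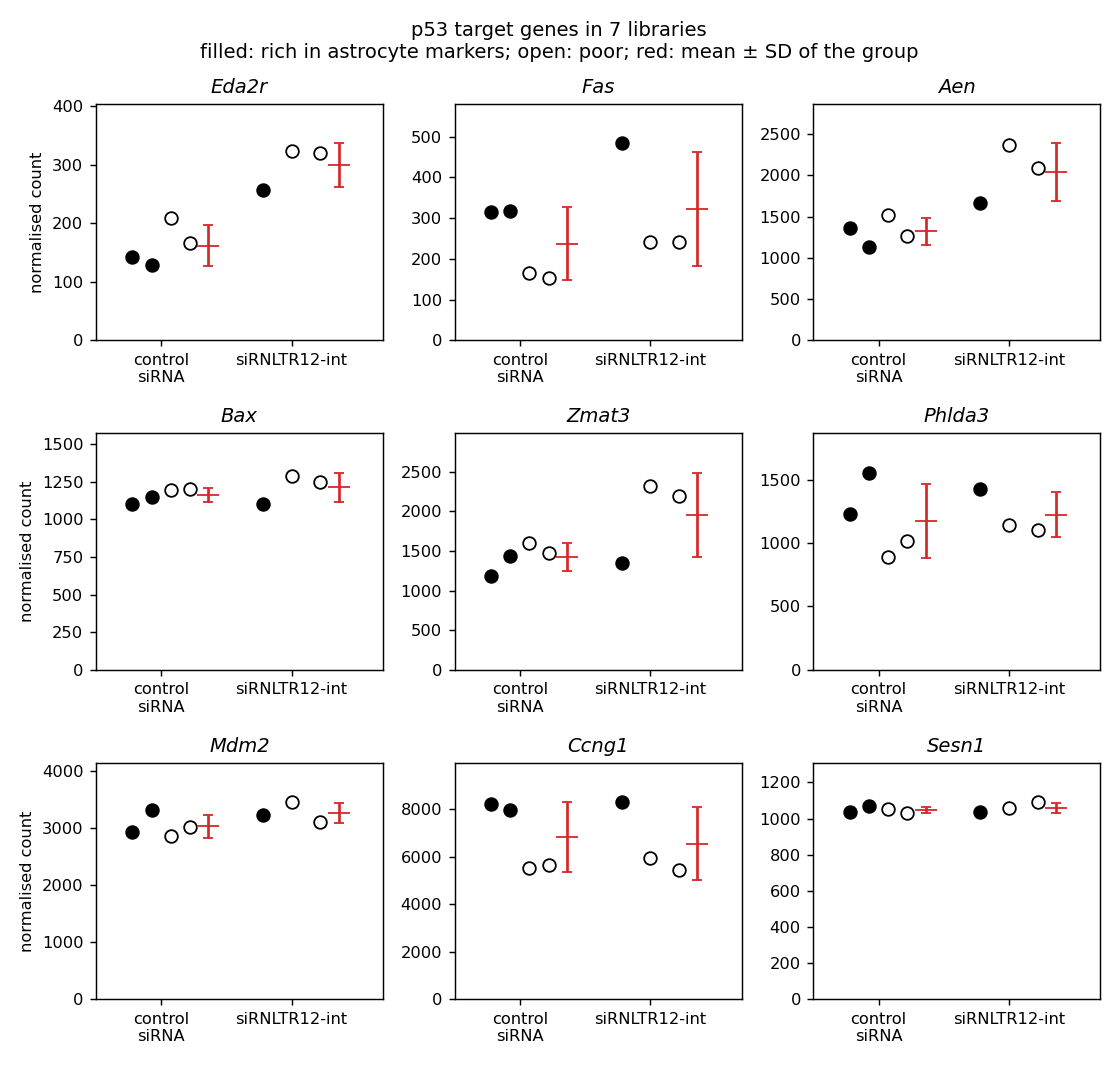
Normalised counts (vertical axes, from 0) of 9 p53 target genes in the 4 control and 3 siRNLTR12-int libraries, in replicate order from left to right, with the group mean ± SD in red. Filled circles are the astrocyte-rich libraries and open circles the astrocyte-poor ones; Eda2r and Aen separate the siRNA groups, while Ccng1 and Phlda3 separate filled from open circles.

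Eda2r (ENSRNOG00000013018) encodes the receptor for the A2 form of ectodysplasin, a member of the tumour necrosis factor receptor family. Control replicates 1 to 4 had 142, 129, 209 and 167 normalised counts, and siRNLTR12-int replicates 1 to 3 had 257, 323 and 319. The lowest siRNLTR12-int library thus lay above the highest control. Group values were 161.5 ± 35.0 (SD, n = 4) and 299.6 ± 37.1 (SD, n = 3). The log2 difference was 0.90 with a standard error of 0.21 (95% confidence interval 0.42 to 1.39; limma adjusted p = 0.647). By DESeq2 in the authors' deposited table, Eda2r rose by 0.89 on the log2 scale (adjusted p = 0.0289). That call rests on single libraries: with DESeq2 on the recovered reads the adjusted p was 0.0587, 0.122 and 0.155 without control replicates 1, 2 and 4, and 0.576 and 0.609 without siRNLTR12-int replicates 2 and 3. It was 0.00218 without control replicate 3 and 0.0178 without siRNLTR12-int replicate 1, and the log2 difference stayed between 0.80 and 1.05 in these 7 fits. Eda2r was among the shallower members, with 94 to 396 reads per library.

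Fas (ENSRNOG00000019142), the death receptor that recruits caspases when bound by Fas ligand, was ordered by the astrocyte split first and by the siRNA second. It stood at 316, 316, 165 and 153 normalised counts in control replicates 1 to 4 and at 484, 242 and 240.2 after the siRNA. Controls 1 and 2 lay above siRNLTR12-int replicates 2 and 3, so the groups overlapped. Within the astrocyte-rich libraries the siRNLTR12-int value of 484 was above both controls at 316, and within the astrocyte-poor ones 242 and 240.2 were above 165 and 153. Without regard to the split the difference was 0.44 with a standard error of 0.38 (95% confidence interval -0.46 to 1.34; limma adjusted p = 0.946). With the split as a block it was 0.60 with a standard error of 0.11 (95% confidence interval 0.35 to 0.86; limma adjusted p = 0.191). DESeq2 with that block, an analysis added after the data were seen, gave an adjusted p of 0.00196, edgeR with the block 0.221, and the authors' deposited table, which has no such block, 0.9999. Reads per library numbered 86 to 530.

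Among ligands, adaptors and relatives of these receptors, groups without overlap were found for 2 of 12 tested genes, Eda and Ngfr, both lower (3.59% of all genes). Eda, which encodes ectodysplasin, had 115 to 165 normalised counts in controls and 93.7 to 95.9 after the siRNA, without overlap (log2 -0.42, limma adjusted p = 0.818). Faslg, the Fas ligand, was below the minimum mean of 10 and was not tested, with 5.81 to 14.6 normalised counts over the 7 libraries. Ngfr, a related receptor, was likewise lower without overlap, at 34.4 to 98 in controls and 19 to 32.2 after the siRNA (log2 -0.88, limma adjusted p = 0.832). Among the 12 tested genes of this list (ligands, adaptors and related receptors) 6 had a positive and 6 a negative difference, the median was 0.02, and 0 passed with limma or in the authors' deposited table.

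Aen (ENSRNOG00000018421) encodes a nuclease that p53 induces and that helps cut DNA in apoptosis. Its normalised counts were 1364, 1133, 1519 and 1261 in control replicates 1 to 4 and 1669, 2366 and 2086 after the siRNA. All 3 siRNLTR12-int libraries were above the highest control, the astrocyte-rich replicate 1 least so. The difference was 0.62 with a standard error of 0.16 (95% confidence interval 0.26 to 0.99; limma adjusted p = 0.652), and the authors' deposited table gave 0.63 (DESeq2 adjusted p = 0.0814). With DESeq2 the call appeared without siRNLTR12-int replicate 1 (adjusted p = 0.00644) and with the split as a block (adjusted p = 0.00555). It did not appear without control replicates 1 to 4 (DESeq2 adjusted p = 0.0931, 0.305, 0.0737 and 0.424). Nor did it without siRNLTR12-int replicates 2 and 3 (DESeq2 adjusted p = 0.999985 and 0.902).

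Bax (ENSRNOG00000020876), the pore-forming protein that opens the outer mitochondrial membrane, hardly differed. It had 1100, 1151, 1195 and 1203 normalised counts in control replicates 1 to 4 and 1104, 1286 and 1250 after the siRNA. The 3 astrocyte-rich libraries were the lowest of the 7. Its difference was 0.06 with a 95% confidence interval of -0.17 to 0.29 (limma adjusted p = 0.983).

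Among 15 tested partners of Bax and Bbc3 in the mitochondrial pathway, 8 differences were positive and 7 negative (median 0.09), and 0 passed with limma. Groups did not overlap for 4 partners on the higher side and for 1, Diablo, on the lower side, against 4.09% and 3.59% of all genes. Diablo, which frees caspases from their inhibitors, fell by 0.42 on a log2 scale with DESeq2 in the authors' deposited table (adjusted p = 0.0492), from 1172 to 1399.8 normalised counts in controls to 954 to 1014 after the siRNA. The anti-apoptotic Bcl2 had 146 to 172 in controls and 195 to 232 after the siRNA (log2 0.41, limma adjusted p = 0.712). Bid, a BH3-only protein that activates Bax, had 581 to 769 against 784 to 934 (log2 0.34, limma adjusted p = 0.794). Bcl2l1, an inhibitor of Bax, had overlapping groups and a difference of 0.25 (limma adjusted p = 0.794).

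Zmat3 (ENSRNOG00000010119) encodes a zinc finger protein that binds RNA and influences splicing and transcript stability. Its normalised counts were 1186, 1440.4, 1596 and 1479.5 in control replicates 1 to 4 and 1351, 2324 and 2199 after the siRNA. Replicates 2 and 3 of the siRNA stood above all controls, whereas replicate 1 lay between the astrocyte-rich controls. The difference was 0.43 with a standard error of 0.21 (limma adjusted p = 0.840). In the astrocyte-poor libraries alone it was 0.56 (limma adjusted p = 0.0146), and in the astrocyte-rich ones 0.05. The difference between those differences, tested with limma as an interaction added after the data were seen, was -0.51 with a standard error of 0.20 (adjusted p = 0.965; unadjusted p = 0.0442, and 2.8% of all genes were negative at an unadjusted p under 0.05).

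Phlda3 (ENSRNOG00000009068), a small protein with a pleckstrin homology domain that competes with the kinase Akt for membrane lipids, followed the astrocyte split. It had 1229, 1554, 891 and 1013 normalised counts in control replicates 1 to 4 and 1425, 1143 and 1105 after the siRNA. All 3 astrocyte-rich libraries were above all 4 astrocyte-poor ones. The siRNA difference was 0.09 (95% confidence interval -0.40 to 0.57; limma adjusted p = 0.991), and with the split as a block 0.16 (95% confidence interval -0.10 to 0.43; limma adjusted p = 0.560).

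Sesn1 (ENSRNOG00000000302), a sestrin that restrains the growth kinase complex mTORC1, was the steadiest member. Its normalised counts were 1037, 1067, 1056 and 1031 in control replicates 1 to 4 and 1035, 1058 and 1090.4 after the siRNA. The coefficient of variation was 1.61% among controls and 2.62% after the siRNA. Its difference was 0.02 with a 95% confidence interval of -0.18 to 0.21 (limma adjusted p = 0.995).

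Mdm2 (ENSRNOG00000006304), the ubiquitin ligase and feedback inhibitor of p53, had 2922, 3313, 2853 and 3011 normalised counts in control replicates 1 to 4 and 3218, 3447 and 3107 after the siRNA. The groups overlapped, since control replicate 2 exceeded 2 of the 3 siRNLTR12-int libraries. The difference was 0.11 with a 95% confidence interval of -0.11 to 0.32 (limma adjusted p = 0.945), and the authors' deposited table gave 0.11 too (DESeq2 adjusted p = 0.9999). Its paralog Mdm4, which inhibits p53 without being its usual ligase, differed by 0.04 (limma adjusted p = 0.992).

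Ccng1 (ENSRNOG00000003256), cyclin G1, which brings the phosphatase PP2A to Mdm2, showed the clearest order by the astrocyte split. It had 8230 and 7976 normalised counts in the astrocyte-rich control replicates 1 and 2, 8283 in siRNLTR12-int replicate 1, 5511 and 5631 in control replicates 3 and 4, and 5924 and 5442 in siRNLTR12-int replicates 2 and 3. The astrocyte-rich libraries thus lay together above the others whichever siRNA they had received. The siRNA difference was -0.06 with a standard error of 0.21 (limma adjusted p = 0.993). It turned to 0.03 with a standard error of 0.06 with the split as a block (95% confidence interval -0.12 to 0.18; limma adjusted p = 0.883).

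**Figure D3:**
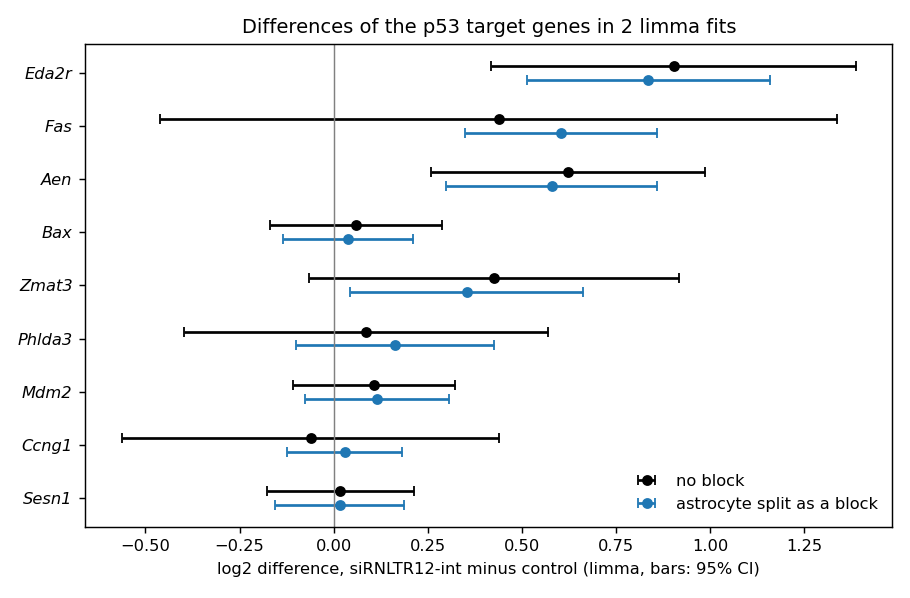
Log2 differences of 9 p53 target genes (horizontal axis, siRNLTR12-int minus control) with 95% confidence intervals from limma, in black without a block and in blue with the astrocyte split as a block. The interval of Fas narrows from -0.46 to 1.34 without the block to 0.35 to 0.86 with it, and those of Eda2r and Aen lie above 0 in both fits, before adjustment over all genes.

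Across the astrocyte split without regard to the siRNA, Fas, Ccng1 and Phlda3 were higher in all 3 astrocyte-rich libraries than in all 4 astrocyte-poor ones, and Bax and Zmat3 were lower. These are 3 of 9 higher (18.6% of all genes) and 2 of 9 lower (17.1%). Between controls alone the astrocyte-rich mean was 1.99 times the astrocyte-poor mean for Fas, 1.46 times for Phlda3 and 1.45 times for Ccng1. In bulk RNA, more cells of a type and more RNA per cell cannot be told apart. Astrocyte and microglia markers moved with these values, as given above, and their part in the result was not tested.

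The split grouped libraries by astrocyte markers only. In the astrocyte-rich set, oligodendrocyte lineage markers had a mean log2 level of 14.28 and 15.34 in control replicates 1 and 2. In siRNLTR12-int replicate 1 that level was 14.01. The median chi-square over genes between those controls was 10.9, against 2.76 between the astrocyte-poor control replicates 3 and 4. Within the astrocyte-poor set, the siRNLTR12-int libraries were above both controls in 8 of 9 genes (31.2% of all genes), the exception being Ccng1. They were below both in 0 of 9 (25.3%). Some of these 8 differed little there, with log2 differences of 0.04 for Sesn1, 0.08 for Bax and 0.16 for Mdm2. In the astrocyte-rich set, with a single siRNLTR12-int library, that library was above both controls in 4 of 9 (Eda2r, Fas, Aen and Ccng1; 33.3% of all genes) and below both in 1, Sesn1 (29.6%), whose difference there was -0.024. Eda2r, Fas and Aen were above in both sets, 3 of 9, where 14.5% of all genes were above and 11.2% below. Their differences were 0.78 and 0.92 for Eda2r, 0.60 and 0.61 for Fas, and 0.68 and 0.43 for Aen, in the astrocyte-poor and astrocyte-rich sets in that order. Over the 9 genes the median difference was 0.24 in the astrocyte-poor and 0.05 in the astrocyte-rich set, against 0.01 and 0.0094 over all genes. No gene passed the test of a difference between the sets (limma interaction, 0% of all genes called, 1.77% positive and 2.8% negative at an unadjusted p under 0.05; Zmat3 was the 1 of 9 at that level).

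**Figure D4:**
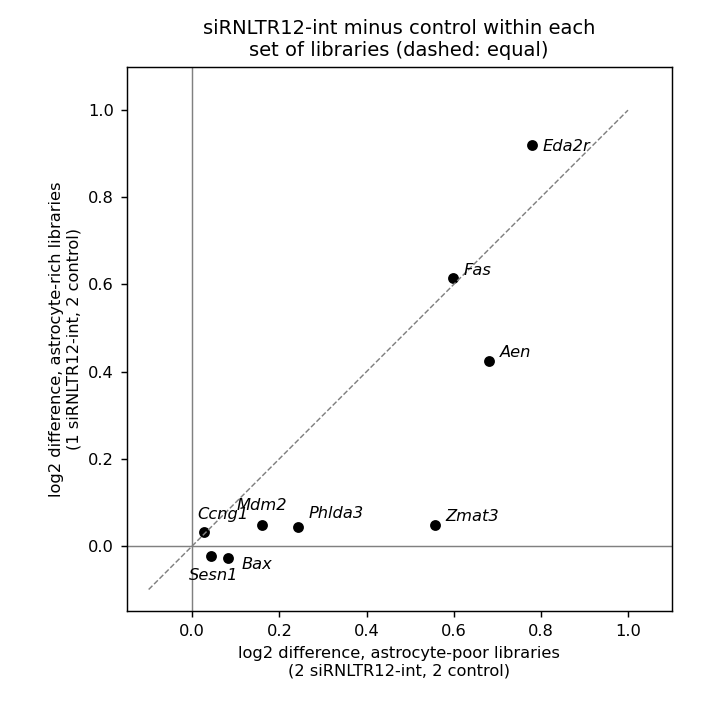
Log2 difference of each p53 target gene (siRNLTR12-int minus control) in the 4 astrocyte-poor libraries on the horizontal axis and in the 3 astrocyte-rich libraries on the vertical axis, with a dashed line where they are equal. Eda2r, Fas and Aen are well above 0 on both axes, Zmat3 on the horizontal axis only (0.56 against 0.05), and the other 5 lie near the origin.

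With the split as a block the calls depended on the tool. Limma called 0 of 9 (0% of all genes) and placed 4 of 9 higher at an unadjusted p under 0.05 (8.38% of all genes; lower 0 of 9 against 5.61%), namely Eda2r, Aen, Fas and Zmat3. EdgeR with the block called 0 of 9 (0.00549% of all genes higher), with 4 higher (7.81%) and 0 lower (5.9%) before adjustment. DESeq2 with the block called 3 of 9 higher (2.43% of all genes) and 0 lower (1.59%): Eda2r (adjusted p = 0.000267), Fas and Aen. In the astrocyte-poor libraries alone limma called 3 of 9 higher (4.78% of all genes) and 0 lower (3.1%): Eda2r (adjusted p = 0.0343), Aen (0.0205) and Zmat3. The same 3 were called over all 7 libraries with weights for each library in limma (2.5% of all genes higher, 2.1% lower). The only siRNLTR12-int libraries in the astrocyte-poor fit, replicates 2 and 3, were the closest pair of the series (median chi-square over genes 1.29). They also had the largest weights (2.85 and 5.71), so the p-values of both fits depend on how closely that pair matched.

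Of the regulators of p53 named next, none passed with limma or in the authors' deposited table. Hipk2, a kinase that phosphorylates p53, had 16699 to 31778 in controls and 14522 to 17552 after the siRNA (log2 -0.59, limma adjusted p = 0.778). Atr, a kinase of the DNA damage response, differed by 0.28 and Crebbp, an acetyltransferase, by 0.24 (limma adjusted p = 0.859 and 0.875).

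Other p53 targets were taken from a list of 40 genes, of which 38 were tested. Their differences were positive in 25 and negative in 13, with a median of 0.10 against 0.0057 over all genes, and 0 passed with limma, while before adjustment 7 had p under 0.05, all on the higher side (3.33% of all genes higher, 2.98% lower). Of these genes 4 rose and 0 fell in the authors' deposited table (DESeq2), against 0.384% and 0.368% of all genes. Cdkn1a, the cyclin-dependent kinase inhibitor p21, was at 1742 to 2597 normalised counts in controls and 4121 to 5151 after the siRNA (log2 1.15 with limma; 1.14 in the authors' table). Epha2, an ephrin receptor, was at 38.5 to 75.6 against 174 to 187 (log2 1.72; authors' DESeq2 adjusted p = 4.9e-06). Gdf15, a stress cytokine, differed by 1.89 and Plk2, a kinase of centrosomes and synapses, by 0.73 (authors' DESeq2 adjusted p = 0.0074 and 0.0173). Tp53inp1, a stress protein that binds p53, had 1203 to 1464 against 1549.8 to 1966 (limma adjusted p = 0.755). Several genes of this list also respond to pathways other than p53.

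Paralogs of the described genes are relevant because reads can be shared between related genes, and the sources used here do not give how they were divided. Of 9 paralogs tested, 4 differences were positive and 5 negative (median -0.0089), and 0 passed with limma. Phlda1 differed by 0.81, with 1204 in siRNLTR12-int replicate 1 inside the control range of 1060.2 to 1502 and 3315 and 2608 in replicates 2 and 3 (limma adjusted p = 0.782). Isg20, a nuclease related to Aen, had 100.1 to 149 against 159 to 184 (log2 0.47, limma adjusted p = 0.780). Ccng2 and Zmat1 differed by -0.23 and -0.25 (limma adjusted p = 0.902 and 0.840).

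Cell cycle genes that p53 lowers indirectly, through p21 and the DREAM repressor complex, were negative in all 17 tested (49% of all genes), with a median of -0.13. Of these genes, 0 passed with limma and 0 in the authors' deposited table. For Ccnb1 and Plk1 the lowest value was that of siRNLTR12-int replicate 1. Ccnb1, the mitotic cyclin, had 564 to 639 normalised counts in controls and 337, 580 and 641 after the siRNA (replicates in order), and Plk1, a mitotic kinase, had 840.3 to 1066 against 552, 877 and 979. Nek2 and Cenpf, of the centrosome and kinetochore, differed by -0.63 and -0.27 (limma adjusted p = 0.918 and 0.930). Without siRNLTR12-int replicate 1 the difference was positive in 12 of 17 and the median turned to 0.10. In the astrocyte-poor set 13 of 17 differences were positive (median 0.14), against 51.7% of all genes. In the astrocyte-rich set, where replicate 1 is the only siRNLTR12-int library, 16 of 17 were negative and 1 positive (median -0.78), against 51.4% of all genes positive. The limma interaction was negative at an unadjusted p under 0.05 in 12 of 17 (2.8% of all genes), and 0 passed after adjustment.

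**Figure D5:**
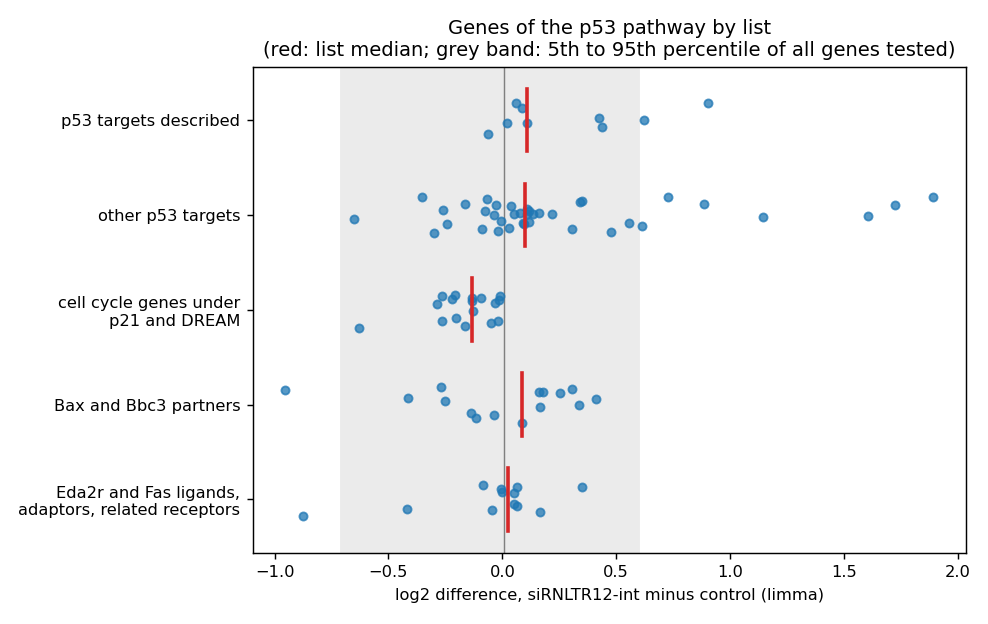
Log2 differences (horizontal axis, siRNLTR12-int minus control, limma) of the genes of 5 lists around p53, 1 point per tested gene, with list medians in red and the 5th to 95th percentile of all 18225 genes (-0.71 to 0.60) as a grey band. Most points fall inside the band; Eda2r and Aen are the described genes above it, and several other p53 targets, Gdf15, Epha2 and Cdkn1a among them, lie farther out.

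The shared profile of the 9 genes, the mean of their standardised log2 values, was lowest in control replicate 4 (-1.23), control replicate 3 (-0.95) and control replicate 1 (-0.80). It was 0.22 in control replicate 2, 0.46 in siRNLTR12-int replicate 1, and highest in replicates 2 and 3 (1.34 and 0.95). Of the 9 genes, 5 had their highest value in siRNLTR12-int replicate 2. Individual members departed from this profile: the root mean square difference to it, in standard deviations over the 7 libraries, was smallest for Mdm2 (0.55) and Aen (0.67) and greatest for Ccng1 (1.30), while Cdkn1a, which did not enter it, was at 0.45. Among other named genes with a mean of at least 100, those nearest to the profile were Bbs4 (0.15), Prr3 (0.20), Dyrk1a (0.22), Cyp26b1 (0.23), Hyal2 (0.26) and Dusp1 (0.27). These 6 were selected out of all such genes for their likeness over 7 libraries, and their likeness is a description.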

How the data were processed

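RNA sequencing of 7 libraries (4 control, 3 siRNLTR12-int) was used. Per the labels' protocols, about 40000 cells per well of plates with 12 wells were transfected, and strand-specific paired-end libraries were made from total RNA (integrity 9 to 10) after ribosomal depletion. Rnor_6.0, Salmon and DESeq2 are named in the submitters' processing notes, with no versions. The authors deposited normalised counts, a signal per gene divided by a size factor for each library. Per the file headers they also deposited a comparison table of log2 fold changes with standard errors, each gene's test score, and raw and adjusted p-values. Within each library 100% of nonzero values fell on whole multiples of its step (tolerance 0.01), which gave back whole reads. No pair of libraries had identical values. In the closest pair, siRNLTR12-int replicates 2 and 3, the median chi-square over genes was 1.29, against 2.72 in the next closest.

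The main fit was limma 3.58.1 on log2(normalised count + 1) (two-sided, trended variance) over 18225 genes with a mean of at least 10, all 7 libraries, no covariate, and Benjamini-Hochberg adjustment over all genes. All 9 measured p53 target genes passed the filter. edgeR 4.0.16 and DESeq2 1.42.0 ran on the recovered reads. The fits were tested on simulated data. The split in astrocyte markers was placed at the widest gap between the libraries' mean marker levels.

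The members, gene lists and alternatives were chosen with earlier results of these data known. Genes named beside the members are Mdm4, Eda, Faslg, Cdkn1a, the 6 (other p53 targets) or 4 (other lists) with the smallest limma p, and the 6 with the nearest profile. Some genes that this rule names are not reported here. Promoters came from RefSeq tables of another build (GRCr8), matched by symbol, and the search for the p53 consensus was set up after the sequences were seen. Normalised counts carry no gene length, so levels were not compared between genes.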

Additional observations from a re-analysis of the deposited data

How the results depend on the processing

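Each of the 9 genes was recomputed under 30 alternatives, and of these 270 values 240 kept direction and side of the threshold, 14 newly passed it and 16 changed sign. Genes called (0 with limma) numbered 839 with array weights, 1415 in the astrocyte-poor libraries, 141 with DESeq2, 694 with DESeq2 and the astrocyte split as a block, and 1 with edgeR and that block. Of the 9, the same fits called 3, 3, 1, 3 and 0. Leaving out 1 library gave 0 to 2 genes with limma (2 without control replicate 4) and 0 of the 9, and 9 to 552 genes with DESeq2 (552, 122, 127 and 49 without control replicates 1 to 4, and 520, 9 and 15 without siRNLTR12-int replicates 1 to 3) and 0 to 3 of the 9. The replicate block called 0 genes and 0 of the 9. Same-numbered samples correlated at 0.75, -0.19 and 0.63 in their deviations. The highest value between differently numbered samples was 0.57 (control replicate 3 with siRNLTR12-int replicate 2). The numbers were not taken as pairs in the main fit, but these correlations cannot exclude pairing, since 0.75 and 0.63 exceeded all others. Ccng1 changed sign with the astrocyte split as a block (0.0293 with limma, 0.0299 with DESeq2, 0.0287 with edgeR) and in the astrocyte-poor libraries (0.0275). With 1 library left out it ranged from -0.24 to 0.0604 with limma, and with DESeq2 it was 0.0366 and 0.0214 without control replicates 1 and 2 and 0.00811 and 0.0574 without siRNLTR12-int replicates 2 and 3. Phlda3 ranged from -0.0346 to 0.23 with limma and was -0.051 and -0.0654 with DESeq2 without control replicate 3 and without siRNLTR12-int replicate 1. Sesn1 ranged from -0.0015 to 0.0361 with limma. The cause was not tested. TMM and upper-quartile rescaling moved the median of all genes by at most 0.013 on the log2 scale and changed no direction among the 9. Array weights favoured siRNLTR12-int replicate 3 (5.71) over replicate 1 (0.22). With 94 to 396 reads, Eda2r is among the shallower genes.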
